A study of Mus musculus with 3 samples.

Results

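The 7 long noncoding RNAs described here are Malat1, Neat1, Meg3, Kcnq1ot1, Rian, Miat and Snhg11, transcripts that are known to stay largely in the nucleus. They were chosen by name and make up 7 of the 32285 genes counted. Their unique molecular identifiers (UMIs, 1 per captured transcript) were counted in single cells from the hearts of 3 kinds of male C57/B6J mice. The Myh6-R404Q mice carry a point mutation in Myh6, the gene of the alpha cardiac myosin heavy chain, which drives contraction. The Prkag2-p.R299Q mice carry one in Prkag2, which encodes a regulatory subunit of the energy sensor AMPK, and the WT mice carry neither. The title of the series calls the mutants HCM mice, where HCM stands for hypertrophic cardiomyopathy. All 3 groups are total cells of the heart, released with collagenase, passed through a 70 μm strainer and captured with a 10x Genomics 3′ kit of version 3. There was 1 library per genotype, and the sources used here give neither ages nor the number of animals per library. No difference between genotypes therefore has a replicate check, no test between them was made, and every interval below is a 95% interval for counting error only.

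Nuclear retained long noncoding RNAs act mostly where they are made. Malat1 is concentrated in nuclear speckles, stores of splicing factors, and Neat1 is the RNA scaffold of paraspeckles, bodies that hold RNA-binding proteins such as NONO and SFPQ. Meg3 and Rian are maternally expressed RNAs of the imprinted Dlk1-Dio3 domain, and Kcnq1ot1 is the paternally expressed antisense RNA that silences neighbours of Kcnq1 in cis. Miat was named for a human myocardial infarction locus, and Snhg11 is a host gene of small nucleolar RNAs. Because such RNAs stay with the nucleus while mitochondrial RNA does not, they are commonly read beside the mitochondrial share of a barcode.

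All 7 genes lie on the mm10 (GRCm38) assembly as the GENCODE annotation places them. Malat1 (chr19:5795690-5802672, minus strand) and Neat1 (chr19:5824708-5845478, minus strand) are annotated as intergenic and have 22035 bases between them. Meg3 (chr12:109541001-109571726, plus strand) is followed after 32213 bases by Rian (chr12:109603940-109661716, plus strand). Kcnq1ot1 (chr7:143203458-143296549, minus strand) is a single exon annotated as antisense, and it runs through an intron of Kcnq1 on the other strand. The sources used here do not say whether reads were counted by strand, so reads of Kcnq1ot1 and Kcnq1 introns cannot be told apart with certainty. Miat lies at chr5:112213228-112229395 on the minus strand. Snhg11 lies at chr2:158375638-158386145 on the plus strand and is annotated as protein coding.

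Malat1 and the long form of Neat1 end without a poly(A) tail. Their 3′ ends are instead held by a triple helix of a pair of U-rich motifs and an A-rich tract, and in Malat1 a tRNA-like RNA is cut off behind it. The ends of both genes are shown because they are the sequence that sets these genes apart from tailed mRNAs in a kit that primes on runs of A. Each is the sense strand of GRCm38, 5′ to 3′, from chr19:5795900-5796099 for Malat1 and chr19:5824708-5824817 for Neat1, both on the minus strand. Capitals mark every string of at least 11 letters that the 2 windows share in the same order.
Malat1: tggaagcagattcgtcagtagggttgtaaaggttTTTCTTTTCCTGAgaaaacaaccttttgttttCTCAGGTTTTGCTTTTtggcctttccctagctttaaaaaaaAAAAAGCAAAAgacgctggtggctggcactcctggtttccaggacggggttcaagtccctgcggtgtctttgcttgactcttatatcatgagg
Neat1: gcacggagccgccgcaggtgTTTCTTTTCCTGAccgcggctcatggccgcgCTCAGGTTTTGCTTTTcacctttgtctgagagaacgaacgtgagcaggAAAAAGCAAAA
The strings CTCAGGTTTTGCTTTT, TTTCTTTTCCTGA and AAAAAGCAAAA were searched on the sense strand of 141767 annotated transcripts. They occur in 2, 35 and 618 of them, or 0.001411%, 0.02469% and 0.4359%. Among the longest transcripts of the other members, AAAAAGCAAAA occurs once, in Snhg11, and the longer pair of strings in none.

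Runs of A within a transcript matter here because such a kit can prime on them. With a tract defined as a window of 20 bases with at least 15 A, the longest annotated transcript of Malat1 (6983 bases) holds 1 tract and that of Neat1 (20771 bases) holds 1. Kcnq1ot1 (93092 bases) holds 50, Meg3 (14548 bases) 8, Rian (8089 bases) 5, Snhg11 (5864 bases) 4 and Miat (9163 bases) 0. The longest run in any member is 41 A, in Kcnq1ot1 at chr7:143226925-143227005 (GRCm38, minus strand), shown in capitals with 20 bases on either side.
Kcnq1ot1: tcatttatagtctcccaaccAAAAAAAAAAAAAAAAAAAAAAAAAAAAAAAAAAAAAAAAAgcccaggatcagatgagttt
Where in a gene the counted reads began was not analysed here.

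The Myh6-R404Q, Prkag2-p.R299Q and WT libraries held 12662, 7951 and 18033 barcodes with 38251499, 31385005 and 41047991 UMIs. After filters and removal of called doublets, 10467, 6773 and 14792 cells were kept. They had median depths of 1849, 2343 and 1414 UMIs and median mitochondrial shares of 2.12%, 1.82% and 2.71%. The deposited Myh6-R404Q matrix also repeats the 7951 Prkag2-p.R299Q and 18033 WT barcodes with 0 differing entries, so only its remaining barcodes stand for Myh6-R404Q. Depth and mitochondrial share thus differed between the libraries that stand for the genotypes. The cells fell into 24 clusters and 13 classes named from markers, and the 8 classes with at least 200 cells in each library are compared. Of the barcode sequences, 34 occur in both the Myh6-R404Q and Prkag2-p.R299Q libraries, 51 in both Myh6-R404Q and WT, and 28 in both Prkag2-p.R299Q and WT. Xist, read as a check of the male label, was counted 23 times in Myh6-R404Q cells, 29 times in Prkag2-p.R299Q cells and 55 times in WT cells. Myh6, a cardiomyocyte gene, stood at 12376 to 14258 CPM (UMIs per 1000000 UMIs of the same cells) in cardiomyocyte-like cells. It still stood at 1195 to 8109 CPM in the other 7 classes, most in endothelial-like cells. Such counts can come from free RNA, and their source was not tested.

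Malat1 was the most counted member in every class. Over all kept cells it stood at 42412 CPM in Myh6-R404Q, 59024 CPM in Prkag2-p.R299Q and 42995 CPM in WT. Among the compared classes it was highest in cardiomyocyte-like cells, at 60093 CPM in Myh6-R404Q, 83121 CPM in Prkag2-p.R299Q and 59466 CPM in WT. It was lowest in endothelial-like cells, at 21908, 26261 and 23238 CPM in the same libraries. The ranges over the 3 libraries of these classes did not overlap. Between them, pericyte-like cells followed at 46880, 57266 and 47534 CPM, fibroblast-like cells at 44808, 53886 and 41291 CPM, and lymphatic endothelial-like cells at 38290, 42883 and 34648 CPM. Endocardial-like, mesothelial-like and macrophage-like cells lay at 28282 to 35521 CPM, and each class from pericyte-like down to macrophage-like overlapped its neighbour in range. Only macrophage-like and endothelial-like cells, the last pair among the compared classes, were separated again. The small smooth muscle-like class (56, 19 and 199 cells) stood at 67905, 84794 and 72355 CPM, overlapping the range of cardiomyocyte-like cells. At least 1 Malat1 UMI was present in nearly every cell, so the share of cells with a UMI does not separate classes for this gene.

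**Figure D1:**
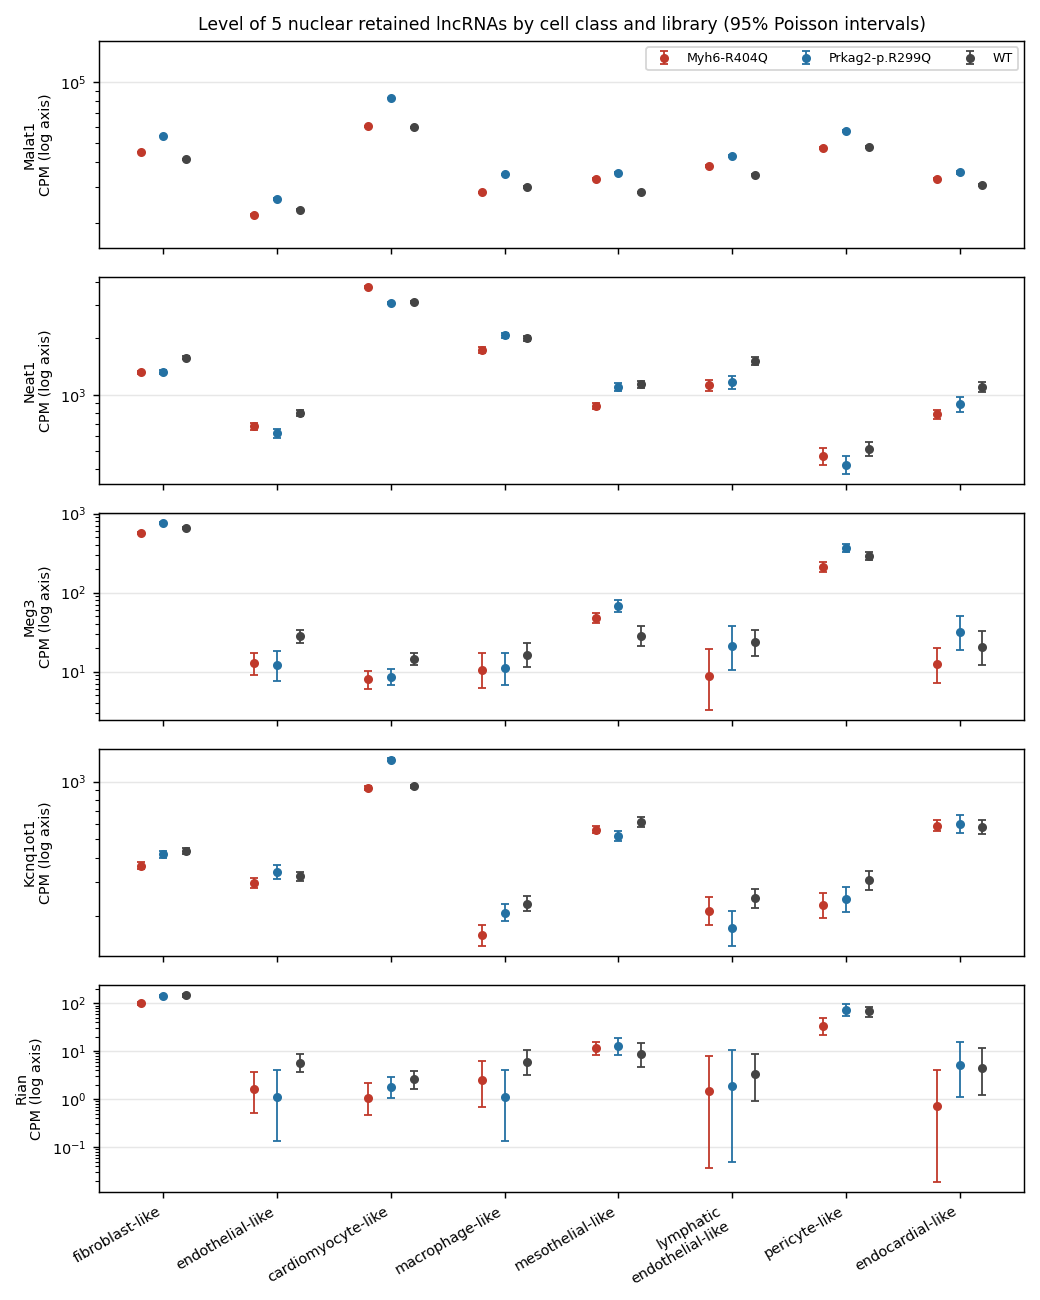
Level of Malat1, Neat1, Meg3, Kcnq1ot1 and Rian in CPM (vertical log axes, 1 panel per gene) in the 8 compared cell classes (horizontal axis); points are the Myh6-R404Q, Prkag2-p.R299Q and WT libraries and bars are 95% Poisson intervals. Malat1, Neat1 and Kcnq1ot1 are highest in cardiomyocyte-like cells, while Meg3 and Rian are highest in fibroblast-like and then pericyte-like cells.

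Neat1 was also highest in cardiomyocyte-like cells, at 3754 CPM in Myh6-R404Q, 3087 CPM in Prkag2-p.R299Q and 3111 CPM in WT. Macrophage-like cells came next, at 1739, 2071 and 1997 CPM, below the whole cardiomyocyte-like range. Pericyte-like cells were lowest of all named classes, at 468 CPM in Myh6-R404Q, 422 CPM in Prkag2-p.R299Q and 513 CPM in WT, below every library of every other class. Fibroblast-like and lymphatic endothelial-like cells (1122 to 1577 CPM together) overlapped, as did mesothelial-like and endocardial-like cells (785 to 1137 CPM). Endothelial-like cells, at 622 to 802 CPM, overlapped the endocardial-like range. A Neat1 UMI was found in 91.4%, 89.5% and 92.8% of cardiomyocyte-like cells in Myh6-R404Q, Prkag2-p.R299Q and WT, against 52.8%, 51.7% and 48.9% of pericyte-like cells. Median depths were 5091, 6570 and 3635 UMIs in cardiomyocyte-like and 1695, 2064 and 1262 UMIs in pericyte-like cells. With each cell thinned to 500 UMIs, the shares were 75.3%, 65.8% and 68.6% in cardiomyocyte-like cells, against 22.7%, 15.05% and 24.3% in pericyte-like cells.

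The pericyte-like class was thus high in Malat1 and lowest in Neat1. It had 0.999, 0.737 and 1.08 Neat1 UMIs per 100 Malat1 UMIs in Myh6-R404Q, Prkag2-p.R299Q and WT. Macrophage-like cells, low in Malat1, had 6.15, 5.95 and 6.64, and cardiomyocyte-like cells 6.25, 3.71 and 5.23. Such a ratio is compared between cells only, since the capture of the 2 RNAs need not be equal. Fibroblast-like cells, at 2.94, 2.45 and 3.82, lay between these classes in every library. The neighbouring genes on chromosome 19 therefore did not share 1 order of cell classes.

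Kcnq1ot1 was highest in cardiomyocyte-like cells as well, at 926 CPM in Myh6-R404Q, 1301 CPM in Prkag2-p.R299Q and 945 CPM in WT. Endocardial-like cells followed at 590, 600 and 582 CPM and mesothelial-like cells at 563, 522 and 618 CPM, with overlapping ranges. Macrophage-like cells were lowest, at 158, 208 and 231 CPM, and overlapped lymphatic endothelial-like cells at 213, 172 and 247 CPM. A UMI was seen in 75.2%, 80.5% and 70.8% of cardiomyocyte-like cells and in 19.8%, 29.5% and 23.2% of macrophage-like cells. Median depth in macrophage-like cells was 1589, 2108 and 1290 UMIs. After thinning to 500 UMIs the shares were 31.5%, 39.3% and 29.8% in cardiomyocyte-like and 7.55%, 7.93% and 10.5% in macrophage-like cells. Kcnq1 itself, a potassium channel gene of heart muscle, stood at 277, 337 and 324 CPM in cardiomyocyte-like cells.

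Meg3 had a different order. It was highest in fibroblast-like cells, at 569.9 CPM in Myh6-R404Q, 757 CPM in Prkag2-p.R299Q and 661 CPM in WT, and next in pericyte-like cells, at 213, 366 and 294 CPM. In cardiomyocyte-like cells, the lowest class, it stood at 7.97, 8.58 and 14.6 CPM. A Meg3 UMI was present in 52.3%, 64.6% and 52.7% of fibroblast-like cells and in 24.1%, 42.3% and 27.9% of pericyte-like cells, against 4.15%, 4.996% and 4.99% of the deeper cardiomyocyte-like cells. At 500 UMIs per cell these shares were 23.0%, 28.0% and 26.9% in fibroblast-like, 10.98%, 17.2% and 12.6% in pericyte-like and 1.08%, 0.892% and 1.201% in cardiomyocyte-like cells. The fibroblast-like and pericyte-like classes thus stood above cardiomyocyte-like cells before and after depth was made equal.

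Rian was likewise highest in fibroblast-like and then pericyte-like cells, at a lower count. It stood at 99.3 CPM in Myh6-R404Q, 143 CPM in Prkag2-p.R299Q and 146 CPM in WT in fibroblast-like cells, and at 33.6, 73.8 and 67.7 CPM in pericyte-like cells. Mesothelial-like cells had 11.6, 12.99 and 8.67 CPM, and the other 5 compared classes had 0.724 to 6.08 CPM. There were 17.4, 18.8 and 22.1 Rian UMIs per 100 Meg3 UMIs in fibroblast-like cells and 15.8, 20.2 and 23.0 in pericyte-like cells. Mirg, the next RNA of the domain, had 3.11, 4.15 and 3.37 UMIs per 100 Meg3 UMIs in fibroblast-like cells. For Rian, in both classes, Myh6-R404Q had the lowest and WT the highest of these ratios.

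The levels of Meg3 and Rian outside fibroblast-like cells were set beside those of 10 fibroblast markers, which free RNA would carry along. Meg3 in pericyte-like cells was at 37.4%, 48.4% and 44.5% of its fibroblast-like level, and 0, 1 and 1 of the 10 markers stood higher in Myh6-R404Q, Prkag2-p.R299Q and WT. The marker median there was 23.1%, 20.6% and 29.7%. In macrophage-like cells Meg3 was at 1.86%, 1.47% and 2.48%, against a marker median of 13.9%, 9.53% and 13.9%. In cardiomyocyte-like cells it was at 1.40%, 1.13% and 2.20%, where the markers had medians of 5.62%, 4.71% and 5.39%. Meg3 UMIs in the last pair of classes thus lay below what most fibroblast markers had there, and such a level can be read as background. The markers define the fibroblast-like class, so this comparison is a description.

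**Figure D2:**
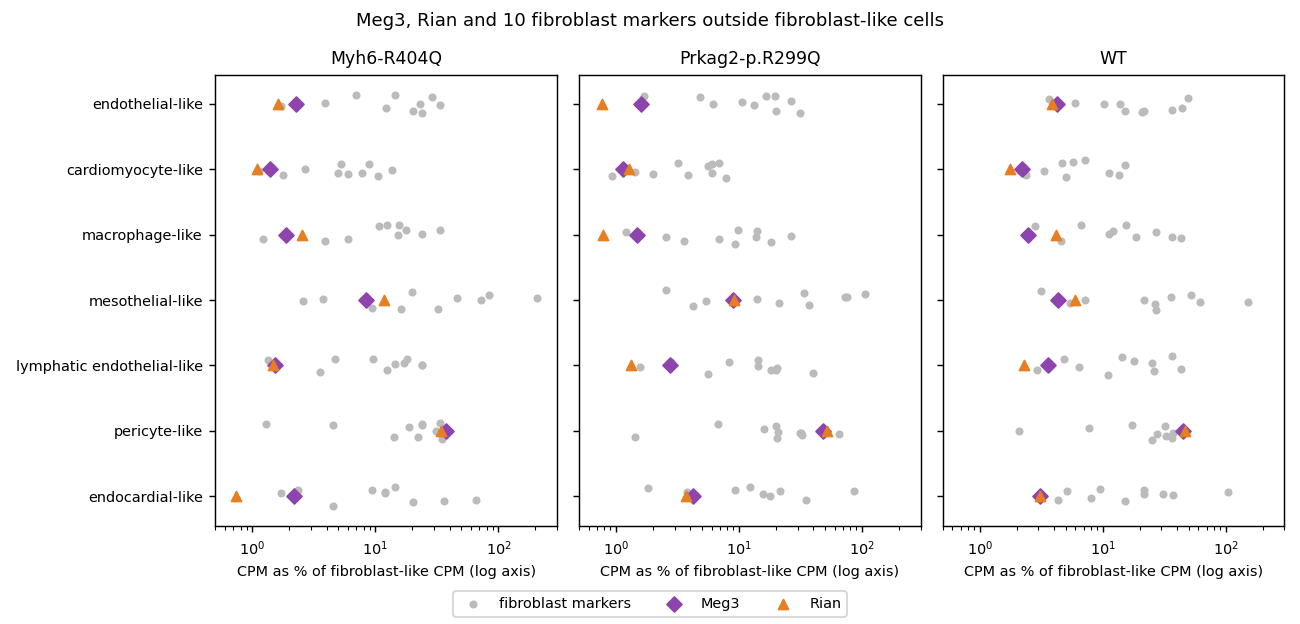
CPM of Meg3 (diamonds), Rian (triangles) and 10 fibroblast markers (grey points) in 7 classes as a percentage of their CPM in fibroblast-like cells (horizontal log axis), with a panel each for Myh6-R404Q, Prkag2-p.R299Q and WT. Meg3 and Rian lie near the top of the marker range in pericyte-like cells and near its bottom in endothelial-like, cardiomyocyte-like and macrophage-like cells.

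Since Meg3 and Rian were highest in the same pair of classes, a start region of each is shown. Each runs from 250 bases before to 50 bases after a RefSeq start (GRCm38.p6). They lie at chr12:109540746-109541045 and chr12:109603695-109603994, both on the plus strand. Capitals mark matches, on either strand, to 5 motifs. They are the TATA box (TATAAA), the CCAAT box (CCAAT), the GC box (GGGCGG), the cyclic AMP response element (TGACGTCA) and the E box (CACGTG).
Meg3: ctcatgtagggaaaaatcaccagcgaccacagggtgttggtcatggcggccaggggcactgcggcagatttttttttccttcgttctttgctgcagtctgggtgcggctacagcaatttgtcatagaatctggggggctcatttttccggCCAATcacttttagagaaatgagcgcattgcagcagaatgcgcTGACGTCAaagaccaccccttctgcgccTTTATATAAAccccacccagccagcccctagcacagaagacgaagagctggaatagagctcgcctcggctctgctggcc
Rian: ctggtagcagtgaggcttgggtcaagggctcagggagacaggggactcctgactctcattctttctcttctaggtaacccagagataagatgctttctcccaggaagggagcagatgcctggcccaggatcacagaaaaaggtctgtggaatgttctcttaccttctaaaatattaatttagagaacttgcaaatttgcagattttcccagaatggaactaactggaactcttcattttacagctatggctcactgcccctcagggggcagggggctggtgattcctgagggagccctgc
The Meg3 window has 2 matches to the TATA box, which overlap on opposite strands, 1 to the CCAAT box and 1 to the cyclic AMP response element. The Rian window has none of the 5. These motifs occur in 14.16%, 37.92%, 35.91%, 1.876% and 7.241% of 27025 promoters of this length, in the order named. The Meg3 window has 13 CpG sites and the Rian window 0, where the median promoter has 7. Another RefSeq start of Meg3, 4397 bases after the GENCODE start, is not shown. Its window has 1 CpG site and none of the 5 motifs. A match describes letters and is not a bound site. RefSeq windows were matched for 6 of the 7 members, all but Neat1.

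Miat and Snhg11 were near the limit of detection. Miat had 10, 9 and 13 UMIs in Myh6-R404Q, Prkag2-p.R299Q and WT over all kept cells. It had 0 UMIs in the cardiomyocyte-like, macrophage-like, lymphatic endothelial-like and pericyte-like cells of each library. In cardiomyocyte-like cells a count of 0 allows up to 0.405, 0.343 and 0.323 CPM, taking 3 counts as the limit. The T and NK cell-like class, with 85, 41 and 117 cells, held 6, 0 and 3 Miat UMIs. Snhg11 had 30, 49 and 47 UMIs, of which 21, 42 and 41 were in cardiomyocyte-like cells, or 2.84, 4.81 and 4.42 CPM. No fold is given for either gene.

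By the correlation of log2(CPM + 1) over 32 sums of a class in a library, the genes most like each member were as follows among 9475 genes. For Malat1 they were Asph (Pearson r = 0.862), a calcium-handling and hydroxylase gene, Urgcp (0.859) and Gm5820 (0.808). For Neat1 they were Rhobtb1 (0.875), Stau2 (0.821), an RNA transport protein, and Tbc1d4 (0.817), a regulator of glucose transporter traffic. For Kcnq1ot1 they were Tfdp2 (0.906), a partner of E2F factors, Pkp2 (0.843), a desmosome protein, and Hand2os1 (0.841). For Meg3 they were Adamts2 (0.922), a procollagen protease, Abca8a (0.919) and Abca8b (0.911), and for Rian Ddr2 (0.860), a collagen receptor, Meg3 (0.855) and Naalad2 (0.846). Miat had A630014C17Rik (0.934), Tnfsf11 (0.930) and Klrk1 (0.921), and Snhg11 had Tesmin (0.697), Gm49708 (0.675) and Osbpl6 (0.673). Both of these members were near the limit of detection, so their values rest on few UMIs, however high r is. The sums share libraries and depth, so these values describe and are not tested. Rian is the only member whose list of 3 holds another member.

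Malat1 went with the depth and the mitochondrial share of a barcode. In all 24 combinations of class and library, its CPM over non-mitochondrial UMIs was lower in the filled bin of highest mitochondrial share than in that of lowest share, with a median ratio of 0.745 and a range of 0.241 to 0.958. Within barcodes of 1000 up to 2000 UMIs it was again lower in all 24, with a median ratio of 0.864. In cardiomyocyte-like cells of Myh6-R404Q it stood at 64739, 59113, 35949 and 19173 CPM of non-mitochondrial UMIs in barcodes of under 1, 1 to 2.5, 2.5 to 5 and over 5% mitochondrial UMIs. In Prkag2-p.R299Q these levels were 87947, 75000 and 30612, with 21179 in the last bin, and in WT they were 62726, 59134, 47140.0 and 31872. Every step to a higher mitochondrial bin had a lower Malat1 level in that class. In fibroblast-like cells the same bins had 48440, 46559, 41661 and 29692 CPM in Myh6-R404Q, 56198, 55178, 49065 and 34708 CPM in Prkag2-p.R299Q, and 47758, 44340, 39314 and 29896 CPM in WT. By depth, Malat1 was higher in the deepest filled bin than in the shallowest in 21 of 24 combinations, with a median ratio of 1.24.

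Malat1 made up a median of 5.18% of the UMIs of a cardiomyocyte-like cell in Myh6-R404Q, with a 5th percentile of 0.751% and a 95th of 10.6%. The median was 6.87% in Prkag2-p.R299Q cells (0.435% to 14.99%) and 4.78% in WT cells (1.87% to 11.1%). In fibroblast-like cells the medians were 4.53%, 5.43% and 3.94%. Over the 1302, 1121 and 2164 cardiomyocyte-like cells, the Spearman rho of this share was -0.49, -0.53 and -0.31 with the mitochondrial share and 0.42, 0.42 and 0.35 with depth. Cells of 1 library share its preparation, so these values describe.

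The other members did not share this pattern. Between the lowest and highest mitochondrial bins, Neat1 was lower in 14 of 24 combinations and higher in 10, and Kcnq1ot1 was lower in 17 and higher in 7. Meg3 was higher in 19 of 24 and lower in 4, with a median ratio of 1.59, which includes classes where its level can be read as background. Within the narrow depth range used above for Malat1, Meg3 was higher in 13 of 24 and lower in 10, with a median ratio of 1.03. In that range Meg3 thus had little tendency either way. In many combinations, though, the filled mitochondrial bins spanned less there than over all depths. The median ratios of 1.59 and 1.03 therefore do not compare the same bins, and the part of depth in their difference was not tested. In mesothelial-like cells of the mutant libraries Neat1 went the other way from Malat1. It stood at 864 CPM of non-mitochondrial UMIs in the lowest and 1407 CPM in the highest bin of Myh6-R404Q. In Prkag2-p.R299Q these levels were 1044 and 1390 CPM. In WT Neat1 was lower in the highest bin, at 1110 CPM, than in the lowest filled bin, at 1192 CPM. In cardiomyocyte-like cells, though, Neat1 and Kcnq1ot1 did go with Malat1. On the same scale Neat1 stood there at 4005 CPM in the lowest and 1345 in the highest mitochondrial bin of Myh6-R404Q, at 3263 and 1400 in Prkag2-p.R299Q, and at 3310 and 1854 in WT. Kcnq1ot1 stood there at 962 and 291 CPM in Myh6-R404Q cells, 1346 and 297 CPM in Prkag2-p.R299Q cells, and 923 and 511 CPM in WT cells. The share of ribosomal protein genes moved the other way in these cells, at 0.306% and 1.75% in the lowest and highest bins of the Myh6-R404Q cells, 0.262% and 2.10% in those of Prkag2-p.R299Q, and 0.254% and 1.56% in those of WT.

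**Figure D3:**
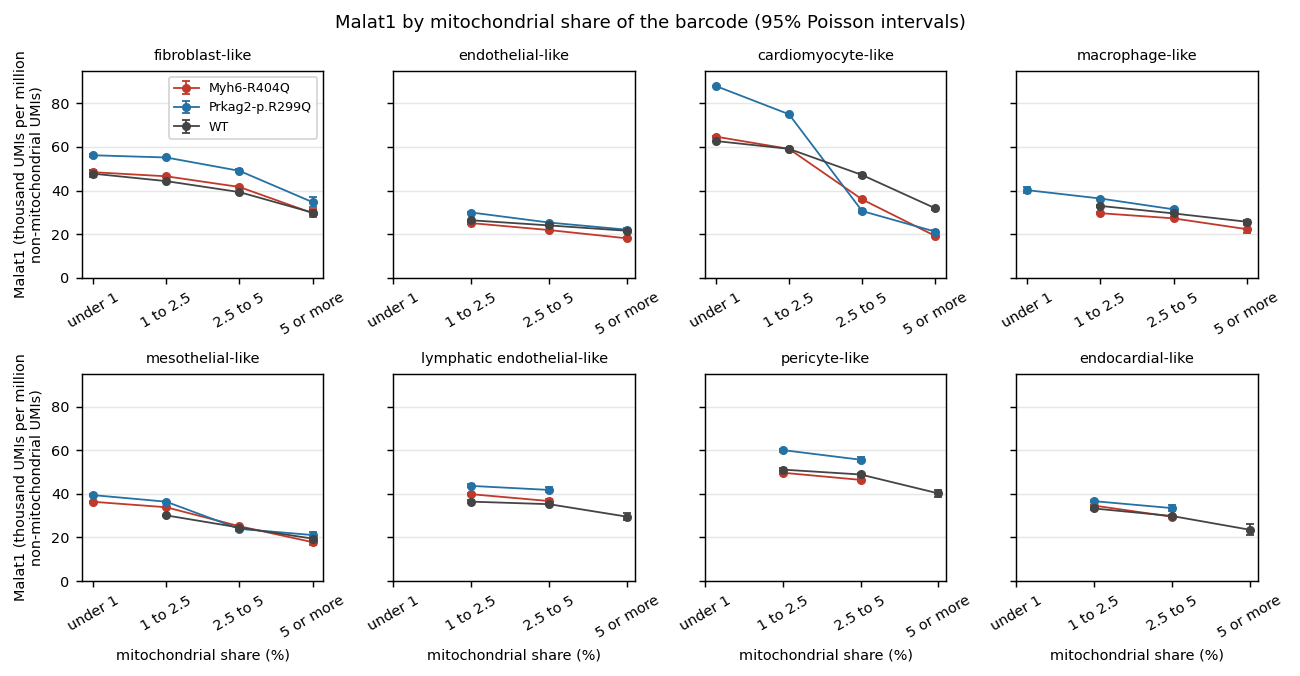
Malat1 CPM over non-mitochondrial UMIs (vertical axis, in units of 1000 CPM) in barcodes grouped by mitochondrial share (horizontal axis) in the 8 compared classes; lines are the Myh6-R404Q, Prkag2-p.R299Q and WT libraries, bars are 95% Poisson intervals and bins under 20 cells are left out. Malat1 is lower in the highest filled bin than in the lowest in all 24 lines, and the Prkag2-p.R299Q line of cardiomyocyte-like cells crosses below the WT line above 2.5%.

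The lowest Malat1 levels of any cluster of at least 20 cells in a library were in a small cardiomyocyte-like cluster, numbered 18. Its leading genes included Nppa and Nppb, natriuretic peptides, Acta1 and Ankrd1, genes that are known to be raised in stressed heart muscle. It held 74 Myh6-R404Q, 116 Prkag2-p.R299Q and 21 WT cells, with median mitochondrial shares of 5.25%, 5.10% and 6.97% and ribosomal protein shares of 1.85%, 2.18% and 2.001%. Malat1 stood there at 5865 CPM in Myh6-R404Q, 5801 CPM in Prkag2-p.R299Q and 17379 CPM in WT. In cluster 3, the main cardiomyocyte-like cluster, it stood at 61654, 85684 and 60352 CPM. Neat1 was low there too, at 285, 312 and 915 CPM, against 3874, 3181 and 3200 CPM in cluster 3. Kcnq1ot1 had only 9, 16 and 2 UMIs in cluster 18. With both genes lower, their ratio did not move 1 way, with 4.87, 5.39 and 5.26 Neat1 UMIs per 100 Malat1 UMIs in cluster 18 and 6.28, 3.71 and 5.30 in cluster 3. The cluster was defined without these members, but by other genes of the same cells. Of all cardiomyocyte-like cells, 6.45% of those from Myh6-R404Q, 10.3% of those from Prkag2-p.R299Q and 1.06% of those from WT had under 1% of their UMIs from Malat1.

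A shallower cardiomyocyte-like cluster, number 12, did not have such low Malat1. Its median depth was 779, 758 and 824 UMIs in Myh6-R404Q, Prkag2-p.R299Q and WT, with a mitochondrial share of 5.94%, 5.61% and 4.86%. Malat1 stood there at 42698, 43447 and 41766 CPM, between the levels of clusters 18 and 3 in each library. Cluster 22, mesothelial-like and led by Igfbp6, Rarres2 and Lgals7, held 56, 39 and 18 cells with 6261, 8297 and 13961 CPM of Malat1. The main mesothelial-like cluster, number 5, had 33397, 35856 and 28392 CPM. Over the clusters of at least 20 cells, Malat1 ranked lower where the mitochondrial share was higher, with Spearman rho of -0.50 over 22 Myh6-R404Q clusters, -0.68 over 20 Prkag2-p.R299Q clusters and -0.58 over 22 WT clusters. With the ribosomal protein share rho was -0.61, -0.71 and -0.73. The clusters of a library share its depth and preparation, so these are descriptions.

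**Figure D4:**
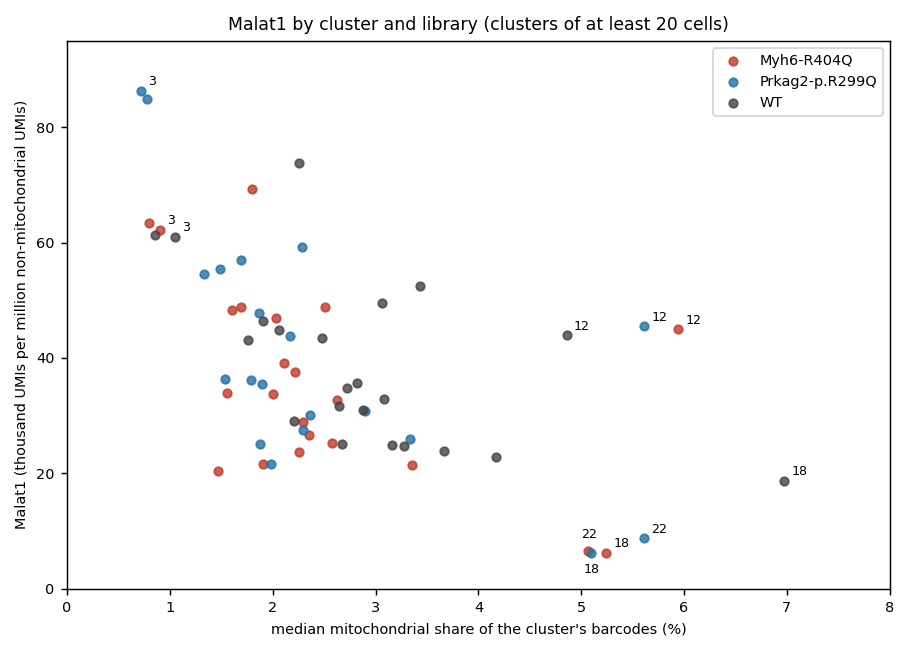
Malat1 CPM over non-mitochondrial UMIs (vertical axis, in units of 1000 CPM) against the median mitochondrial share of the cluster (horizontal axis); each point is 1 cluster of at least 20 cells in Myh6-R404Q, Prkag2-p.R299Q or WT, and clusters 3, 12, 18 and 22 are numbered. Cluster 18 lies at the bottom right while cluster 12, of like mitochondrial share, lies near the middle of the Malat1 range.

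Genotypes were then compared within each class. Malat1 in Prkag2-p.R299Q over WT was higher in 8 of 8 classes, by 1.13-fold in endothelial-like to 1.40-fold in cardiomyocyte-like cells (interval 1.39 to 1.40 for the cardiomyocyte-like fold). In Prkag2-p.R299Q over Myh6-R404Q it was also higher in 8 of 8 classes, by 1.07-fold to 1.38-fold, and the pair of comparisons share the Prkag2-p.R299Q library. In Myh6-R404Q over WT it was above 1 in 5 classes and below 1 in 3, between 0.941-fold and 1.17-fold, and with each class centred on its median gene in 4, the cardiomyocyte-like fold then being 0.948. All of these folds fall short of 1.5. The Prkag2-p.R299Q library was also the deepest and had the lowest mitochondrial share, in the direction in which Malat1 was higher within a library, and the part of this in the folds was not tested.

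Malat1 in Prkag2-p.R299Q was above WT in most matched bins. In barcodes of the same class and depth bin, Malat1 was higher in Prkag2-p.R299Q than in WT in 23 of 28 bins, with a range of 0.810-fold to 1.46-fold, and in Myh6-R404Q in 13 of 28. In barcodes of the same class and mitochondrial bin it was higher in Prkag2-p.R299Q in 19 of 22 bins, with a range of 0.649-fold to 1.40-fold, and in Myh6-R404Q in 9 of 23. In fibroblast-like cells the Prkag2-p.R299Q level was higher at every depth, with 46865, 52925, 54399 and 53432 CPM in barcodes of 500, 1000, 2000 and 4000 UMIs upward. The same bins had 32046, 40325, 44168 and 45371 CPM in WT. In cardiomyocyte-like cells the direction turned with depth. Prkag2-p.R299Q had 26861 and 36809 CPM in the shallowest pair of bins, against 33168 and 43495 in WT, and 70534 and 84991 in the deepest pair, against 56496 and 62002 in WT. Cluster 18, with median depths of 1817, 1372 and 1230 UMIs, falls in these shallow bins. Without clusters 12, 18, 22 and 24, the cardiomyocyte-like fold over all depths was 1.42 in Prkag2-p.R299Q over WT. In barcodes of 1000 up to 2000 UMIs alone it was 0.846, and Malat1 was then above 1 in 6 of 8 classes.

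**Figure D5:**
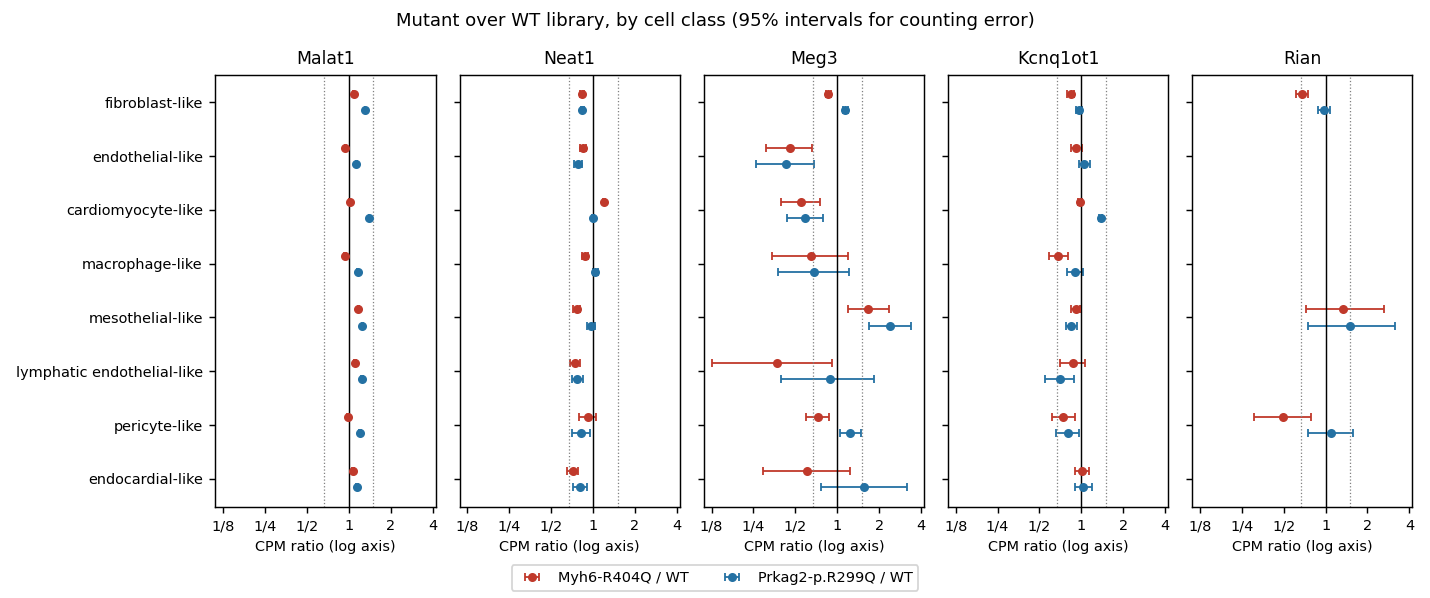
CPM in Myh6-R404Q over WT and in Prkag2-p.R299Q over WT (horizontal log axes) for Malat1, Neat1, Meg3, Kcnq1ot1 and Rian in the 8 compared classes (rows); bars are 95% intervals for counting error, dotted lines mark 1.5-fold either way, and values under 10 CPM in both libraries are left out. Malat1 lies right of 1 in all 8 classes of Prkag2-p.R299Q, Neat1 lies left of 1 in 7 of 8 classes of either comparison, at 0.992 in cardiomyocyte-like cells of Prkag2-p.R299Q (1.03 when centred on the median gene), and the widest bars belong to Meg3 and Rian.

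Neat1 in Myh6-R404Q was higher than in WT in cardiomyocyte-like cells alone among the 8 classes. It stood there at 3754 CPM in Myh6-R404Q and 3111 CPM in WT, 1.21-fold (interval 1.19 to 1.23), and in the other 7 classes at 0.713-fold to 0.913-fold. In barcodes of 1000 up to 2000 UMIs the cardiomyocyte-like fold was 0.704, so its direction depended on depth. Neat1 in Prkag2-p.R299Q over WT was below 1 in 7 of 8 classes, between 0.769-fold and 0.992-fold, and 1.04-fold in macrophage-like cells. The 0.992-fold was of cardiomyocyte-like cells and became 1.03-fold when centred on the median gene. In matched bins Neat1 was lower in Myh6-R404Q than in WT in 25 of 28 depth bins and 20 of 23 mitochondrial bins. In fibroblast-like cells the Neat1 level was 1316 CPM in Myh6-R404Q, 1323 CPM in Prkag2-p.R299Q and 1577 CPM in WT. Malat1 and Neat1 therefore differed in opposite directions between Prkag2-p.R299Q and WT in that class.

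Kcnq1ot1 in Prkag2-p.R299Q over WT was 1.38-fold in cardiomyocyte-like cells (1301 CPM in Prkag2-p.R299Q, 945 CPM in WT, interval 1.34 to 1.41). The direction turned in barcodes of 500 up to 1000 UMIs, with 444 CPM in Prkag2-p.R299Q and 612 CPM in WT. It also turned in the 2 highest bins of mitochondrial share, where the folds over non-mitochondrial UMIs were 0.596 (2.5% up to 5%) and 0.581 (5% and over). Over all barcodes it was 0.698-fold in lymphatic endothelial-like cells (172 CPM in Prkag2-p.R299Q, 247 CPM in WT, interval 0.545 to 0.886), and between these values in the other classes. In the main cardiomyocyte-like cluster Kcnq1ot1 kept pace with Malat1, with 1.56, 1.56 and 1.55 UMIs per 100 Malat1 UMIs in the Myh6-R404Q, Prkag2-p.R299Q and WT libraries. Kcnq1, on the other strand, was 1.04-fold in the same class. In Myh6-R404Q over WT, Kcnq1ot1 was below 1 in 7 of 8 classes, at 0.684-fold to 1.01-fold, and the lowest was in macrophage-like cells (158 CPM in Myh6-R404Q, 231 CPM in WT, interval 0.586 to 0.798). It was below 1 in 26 of 28 matched depth bins and 20 of 23 matched mitochondrial bins.

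Meg3 and Rian held all folds of at least 1.5. Counting a member in a class as past the fold when it differed at least 1.5-fold with at least 10 CPM in either library, 7 of 35 measured pairs passed in Myh6-R404Q over WT, 1 higher and 6 lower. Of all genes measured in the 8 classes, 17.4% passed the same rule. Of 35 pairs in Prkag2-p.R299Q over WT, 4 passed, 2 higher and 2 lower, where 18.0% of all genes did. Of 34 pairs in Prkag2-p.R299Q over Myh6-R404Q, 4 passed, all higher, where 16.3% of all genes did. The members' shares are near or below these backgrounds. The median log2 ratio of the measured members ranged over the 8 classes from -0.43 to 0.23 in Myh6-R404Q over WT, where that of all genes ranged from 0.02 to 0.09. The same median ranged in Prkag2-p.R299Q over WT from -0.28 to 0.32, where that of all genes ranged from -0.05 to 0.01. Per class the background over all genes was 9.40% to 24.6% in Myh6-R404Q over WT, 7.37% to 28.5% in Prkag2-p.R299Q over WT, and 6.59% to 28.4% in Prkag2-p.R299Q over Myh6-R404Q. By direction, 9.42% of all genes were higher and 7.98% lower in Myh6-R404Q over WT. These shares were 7.93% and 10.1% in Prkag2-p.R299Q over WT, and 6.47% and 9.83% in Prkag2-p.R299Q over Myh6-R404Q. Every pair past the fold was of Meg3 or Rian. Of the 6 lower in Myh6-R404Q over WT, 5 were of Meg3 in endothelial-like, cardiomyocyte-like, macrophage-like, lymphatic endothelial-like and endocardial-like cells, where at least 8 of the 10 fibroblast markers stood above Meg3.

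In fibroblast-like cells, where Rian is best counted, it stood at 99.3 CPM in Myh6-R404Q and 146 CPM in WT, 0.679-fold (interval 0.612 to 0.752), and at 143 CPM in Prkag2-p.R299Q, 0.974-fold of WT (interval 0.888 to 1.07). In pericyte-like cells it stood at 33.6 CPM in Myh6-R404Q and 67.7 CPM in WT, 0.497-fold (interval 0.306 to 0.785), from 27 and 69 UMIs. Over all kept cells Rian was 0.628-fold in Myh6-R404Q over WT. Meg3 in Myh6-R404Q over WT was 0.862-fold in fibroblast-like cells (interval 0.825 to 0.902) and 0.723-fold in pericyte-like cells. For Prkag2-p.R299Q over WT it was 1.15-fold (interval 1.10 to 1.19) and 1.24-fold in these classes. Taken whole, the classes that express them most thus had less of both genes in Myh6-R404Q than in WT, though fibroblast-like cluster 11 did not. In mesothelial-like cells Meg3 stood instead at 47.5 CPM in Myh6-R404Q and 67.7 CPM in Prkag2-p.R299Q, against 28.5 CPM in WT, or 1.67-fold and 2.38-fold of WT. Decorin (Dcn), a fibroblast matrix gene also read for free RNA, stood in the same cells at 986, 905 and 562 CPM. The part of free RNA in this difference was not tested. In matched bins Rian was lower in Myh6-R404Q than in WT in 12 of 16 depth bins and 14 of 18 mitochondrial bins. In the other 5 classes Meg3 rested on 6 to 135 UMIs per library.

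The subclusters of fibroblast-like cells differed in these RNAs too. In Myh6-R404Q, Prkag2-p.R299Q and WT, cluster 1, the largest, had 521, 683 and 623 CPM of Meg3, and cluster 11, led by Pi16 and Has2, had 865, 904 and 734 CPM. Cluster 14, led by Postn, Cilp and Tnc, genes of activated matrix-producing fibroblasts, had 401, 788 and 519 CPM from 66, 261 and 165 UMIs. In cluster 6, led by Nkain2 and Fbn2, Meg3 stood at 651, 858 and 821 CPM and Malat1 at 36689, 46861 and 33772 CPM. Malat1 was lowest in cluster 6 among the 4 in every library, while Meg3 there was above cluster 1. Rian stood at 203, 164 and 184 CPM in cluster 11 and at 84.7, 126 and 127 CPM in cluster 1. Cluster 11 was thus above cluster 1 in Meg3 and in Rian in each library. Meg3 was lower in Myh6-R404Q than in WT in clusters 1, 6 and 14, but higher in cluster 11. Rian was likewise lower in Myh6-R404Q than in WT in clusters 1, 6 and 14 and higher in cluster 11. Its UMIs in Myh6-R404Q and WT were 91 and 224 in cluster 6, only 21 and 49 in cluster 14, and 111 and 140 in cluster 11.

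Other genes of the same kinds were read beside the members. Of all genes measured in the 8 classes, 17.4% passed the fold in Myh6-R404Q over WT and 18.0% in Prkag2-p.R299Q over WT. Of 52 other long noncoding RNAs in the matrix, each read in every class where it was measured, 18 of 239 measured values were at least 1.5-fold higher and 23 lower in Myh6-R404Q over WT, and 15 and 22 of 238 in Prkag2-p.R299Q over WT. Their class medians ranged from -0.18 to 0.24 and from -0.10 to 0.12 (log2 ratio) in these comparisons. The 4 with the highest mean were Airn, an imprinted antisense RNA, Mir99ahg, a microRNA host gene, Lncpint, and Mhrt, an antisense RNA of Myh7. In cardiomyocyte-like cells Lncpint stood at 1449 CPM in Myh6-R404Q, 829 CPM in Prkag2-p.R299Q and 933 CPM in WT. Pvt1, a neighbour of Myc, stood there at 65.5, 20.1 and 21.6 CPM, 3.04-fold in Myh6-R404Q over WT (interval 2.57 to 3.60). Mhrt stood at 1487, 1838 and 1499 CPM in the same cells. Mhrt and Airn are antisense to other genes, so their reads carry the same limit on strand as Kcnq1ot1.

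Few transcripts of the proteins of the bodies that hold these RNAs passed the fold. Over all genes 17.4% of measured values did in Myh6-R404Q over WT and 18.0% in Prkag2-p.R299Q over WT. Of 15 paraspeckle proteins, 1 of 120 measured values was at least 1.5-fold higher and 2 lower in Myh6-R404Q over WT, and likewise 1 and 2 of 120 in Prkag2-p.R299Q over WT, with class medians of -0.08 to 0.12 and -0.17 to 0.13 on the log2 scale. The NONO partner Sfpq stood at 192, 162 and 207 CPM in cardiomyocyte-like cells of Myh6-R404Q, Prkag2-p.R299Q and WT. Of 25 nuclear speckle proteins, 5 of 200 values were higher and 1 lower in Myh6-R404Q over WT, and 1 higher and 3 lower in Prkag2-p.R299Q over WT, with medians of -0.07 to 0.04 and -0.17 to -0.04. Son, a core speckle protein, stood at 905, 901 and 845 CPM and Luc7l2, a splicing factor, at 1493, 1414 and 1549 CPM in cardiomyocyte-like cells. Of 15 imprinted neighbours of Meg3, Rian and Kcnq1ot1, 9 of 42 values were higher and 3 lower in Myh6-R404Q over WT, and 4 and 4 of 43 in Prkag2-p.R299Q over WT, with medians of -0.18 to 0.46 and -0.23 to 0.32. Mirg and H19 stand both on this list and on that of other long noncoding RNAs. Among the neighbours Cdkn1c, a cell cycle inhibitor near Kcnq1ot1, stood at 149 CPM in Myh6-R404Q, 76.9 CPM in Prkag2-p.R299Q and 53.9 CPM in WT in mesothelial-like cells. Of 9 genes beside Malat1 and Neat1, 8 of 48 values were higher and 5 lower in Myh6-R404Q over WT, and 4 and 5 of 45 in Prkag2-p.R299Q over WT, with medians of -0.23 to 0.31 and -0.37 to 0.37. Ehbp1l1, one of them, stood at 79.3, 95.3 and 111 CPM in cardiomyocyte-like cells.

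Genes that are known to respond to tissue handling, and the genes that stand for RNA outside the nucleus, were counted by the same rule. The shares of all genes past it were again 17.4% in Myh6-R404Q over WT and 18.0% in Prkag2-p.R299Q over WT. Of 12 heat shock genes, 0 of 90 measured values were at least 1.5-fold higher and 42 lower in Myh6-R404Q over WT, and 1 higher and 34 lower in Prkag2-p.R299Q over WT. Their medians were -0.85 to -0.27 and -0.47 to -0.23 in these comparisons. Dnaja1, a chaperone, stood at 98.1 CPM in Myh6-R404Q, 143 CPM in Prkag2-p.R299Q and 185 CPM in WT in fibroblast-like cells. Of 16 immediate early genes, 5 of 98 values were higher and 19 lower in Myh6-R404Q over WT, and 6 and 20 in Prkag2-p.R299Q over WT, with medians of -0.40 to 0.31 and -0.39 to 0.32. Junb stood at 46.5, 45.3 and 110 CPM and Egr1 at 39.4, 32.0 and 104 CPM in fibroblast-like cells of the same libraries. Of 13 mitochondrial genes, 0 of 104 values were higher in either comparison with WT, with 26 lower for Myh6-R404Q and 35 lower for Prkag2-p.R299Q, with medians of -0.48 to -0.12 and -0.60 to -0.31. Of 86 ribosomal protein genes, 50 of 660 values were higher and 7 lower in Myh6-R404Q over WT, and 42 and 20 of 657 in Prkag2-p.R299Q over WT, with medians of -0.02 to 0.42 and -0.15 to 0.49. These lists move with the genotypes as the libraries do, and their part in the differences of the members was not tested. The median log2 ratio over all genes was within 0.1 of 0 in every class and comparison, except Prkag2-p.R299Q over Myh6-R404Q in cardiomyocyte-like cells, where it was -0.13. Relative to it, the log2 ratio of Malat1 there is larger still, at 0.60.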

How the data were processed

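Hearts of 3 genotypes were measured with 1 single-cell library each. The deposited values are whole-number UMI counts per gene and barcode, made by the authors with Cell Ranger 7.0.1 on mm10, per the submitters' processing notes. Whether introns or strand were used in counting, and how barcodes were chosen, is not stated in the labels or headers. The Myh6-R404Q matrix holds the other libraries' barcodes under suffixes 1 and 2, and suffix 3 was taken as Myh6-R404Q by elimination.

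Kept barcodes had 500 or more UMIs from 300 or more genes, with mitochondrial UMIs up to 20%. Called doublets (17.3%, 14.8% and 18.0% of barcodes in Myh6-R404Q, Prkag2-p.R299Q and WT) were removed, with an assumed rate of 0.8% per 1000 barcodes. That rate gives 10.1%, 6.36% and 14.4%, so more were called than assumed in each library. With doublets kept, 15 of 41 single folds moved out of their intervals and 2 turned direction. Cells were clustered together with scanpy 1.11.5 and leidenalg 0.10.2 (2000 variable genes without the 7 members, 30 components, 20 neighbours, resolution 0.8). A cluster was named from marker genes with a score of at least 0.5 and at least 3 detected markers, and names are rebuilt here, not the authors'.

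UMIs were summed per class and library and given as CPM with exact 95% Poisson intervals. Ratios have exact conditional intervals and shares of cells exact binomial ones, computed with scipy 1.17.1. These cover counting error only, and genotypes were not tested against each other. A member was measured with at least 10 CPM in either library, and 1.5-fold was the size counted. Depth bins began at 500, 1000, 2000 and 4000 UMIs and mitochondrial bins at 0, 1, 2.5 and 5%, each with at least 20 cells. Genes likest a member were the 3 with the highest Pearson r. From each gene list, the 4 genes of highest mean CPM and any with a 2-fold difference at 50 CPM could be named. Dcn and Myh6 were read for free RNA and Xist for the male label, and the clusters described were picked by their values. The members and gene lists were chosen with earlier results of these data known. Ratio counting was tested on simulated data. Alternatives were other depth and mitochondrial limits, doublets kept, other CPM totals, thinning, another resolution, other fold and CPM limits, centring, and the whole Myh6-R404Q matrix.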

Additional observations from a re-analysis of the deposited data

Results flagged for a closer look

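For 4 combinations of gene and mutant over WT, 1 class had a fold above 1 and another a fold below 1. Each was at least 1.2-fold in its direction, with an interval clear of 1. Malat1 in Myh6-R404Q over WT also had intervals above 1 in 5 classes and below 1 in 3, but only between 0.941-fold and 1.17-fold. None of these differences between classes was tested, since each genotype has 1 library. Neat1 in Myh6-R404Q over WT was 1.21-fold in cardiomyocyte-like and 0.713-fold in endocardial-like cells. Meg3 in Myh6-R404Q over WT was 1.67-fold in mesothelial-like cells, from 184 UMIs in Myh6-R404Q and 46 in WT, and 0.372-fold in lymphatic endothelial-like cells, from 6 UMIs in Myh6-R404Q and 28 in WT. Meg3 in Prkag2-p.R299Q over WT was 2.38-fold in mesothelial-like cells, and 0.432-fold in endothelial-like cells, from 22 UMIs in Prkag2-p.R299Q and 113 in WT. Kcnq1ot1 in Prkag2-p.R299Q over WT was 1.38-fold in cardiomyocyte-like and 0.698-fold in lymphatic endothelial-like cells.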

How the results depend on the processing

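No paired analysis was possible because each genotype has 1 library and no replicate number. The count of pairs of a member and a class past the fold is given here without the share of all genes under each setting. In Myh6-R404Q over WT, 7 of 35 measured pairs as reported, it was 1 with the Myh6-R404Q matrix taken whole, 23 with no minimum CPM and 3 at 2-fold. In Prkag2-p.R299Q over WT, 4 as reported, it was 2 with a mean over cells, 7 with cells thinned to 500 UMIs, 15 with no minimum CPM and 2 at 2-fold. In Prkag2-p.R299Q over Myh6-R404Q, also 4, it was 2 with doublets kept, 7 with a mean over cells, 7 with cells thinned to 500 UMIs, 2 with the matrix whole and 16 with no minimum CPM. With barcodes of 1000 up to 2000 UMIs only, a setting chosen after seeing the data, the last pair of comparisons had 9 and 7. Values past the fold among the other long noncoding RNAs, paraspeckle and speckle proteins numbered 153 over the 3 comparisons, and 43 with at least 50 CPM. Malat1 was above 1 in Myh6-R404Q over WT in 5 classes, and in 8 with the matrix whole. In Prkag2-p.R299Q over WT it was above 1 in 8 classes under every setting but barcodes of 1000 up to 2000 UMIs, where it was above 1 in 6.

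Directions turned mostly where the fold lay near 1 or the count was low. In Myh6-R404Q over WT, Malat1 in pericyte-like cells was 1.02 with a mean over cells, 1.02 thinned to 500 UMIs, 1.02 at 1000 up to 2000 UMIs and 1.05 with the matrix whole, which also gave 1.01 in endothelial-like and 1.03 in macrophage-like cells and 1.12 for Kcnq1ot1 in cardiomyocyte-like cells. Malat1 in cardiomyocyte-like cells was 0.948 centred on the median gene and 0.687 at 1000 up to 2000 UMIs, where Neat1 was 0.704. Meg3 in endocardial-like cells was 1.04 and 1.30 thinned to 1000 and 500 UMIs and 1.88 at 1000 up to 2000 UMIs. In Prkag2-p.R299Q over WT, Neat1 in cardiomyocyte-like cells was 1.02 with doublets kept, 1.02 without the members in the total, 1.03 when centred, and 1.002 without clusters 12, 18, 22 and 24, also chosen after seeing the data. Meg3 was 0.829 in endocardial-like cells with doublets kept and 1.16 in cardiomyocyte-like cells thinned to 500 UMIs. At 1000 up to 2000 UMIs Malat1 was 0.846 in cardiomyocyte-like and 0.905 in mesothelial-like cells. In Prkag2-p.R299Q over Myh6-R404Q, Meg3 in endocardial-like cells was 0.979 thinned to 1000 UMIs and 0.775 at 1000 up to 2000 UMIs. The cause of these turns was not tested. Resolution 1.2 and members kept among the variable genes left all 41 single folds within their intervals. Depth limits Miat and Snhg11 in every class, and Meg3 and Rian outside fibroblast-like, pericyte-like and mesothelial-like cells.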
